A study of Mus musculus with 12 samples.

Results

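Tubulins are the proteins from which microtubules are built, and 10 genes that encode them were examined by symbol in a mouse B cell lymphoma line carrying different forms of the ribosomal protein RPL12. They were 4 alpha-tubulin genes (Tuba1a, Tuba1b, Tuba1c and Tuba4a), 5 beta-tubulin genes (Tubb5, Tubb2a, Tubb3, Tubb4b and Tubb6) and the gamma-tubulin gene Tubg1, out of 51826 genes with a row in the count files. All 10 were among the 10477 genes with enough reads to be tested. The cells were 19DN, a subline without reporters of the lymphoma line 19PP, which was grown from a Rag2-/-γC-/- mouse that received bone marrow carrying Cγ1-Cre and Myc/P110*flSTOP, alleles for Myc and a form of the PI3K subunit p110 that Cre switches on. The protein RPL12 carried alanine (S38A) or aspartate (S38D) in place of serine 38, or was wild type (WT). Each line was taken as mitotic cells, arrested for 8 h with nocodazole at 100 ng/mL, washed and released for 10 min, and as asynchronous cells without that treatment. Cycloheximide at 100 µg/mL, which halts translation, was present in the harvest of all 6 groups. Each group (S38A mitotic, S38D mitotic, WT mitotic, S38A asynchronous, S38D asynchronous and WT asynchronous) had 2 libraries, and nothing in the labels says that these came from separate clones or cultures, so p-values measure only the spread between these libraries, which may be technical.

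An alpha-tubulin and a beta-tubulin form the dimer that adds to microtubule ends, and gamma-tubulin sits in the ring complex from which microtubules grow. Nocodazole binds the dimers and takes microtubules apart, which raises the pool of free dimers. In mammalian cells a high pool of free dimers is known to set off decay of alpha- and beta-tubulin mRNAs while they are being translated. The protein TTC5 recognises the first residues of the new tubulin chain as it leaves the ribosome and, through SCAPER, recruits an enzyme complex that shortens the mRNA tail. These points are background and were not measured here.

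Since that recognition rests on the start of the protein, the first 30 coding bases are given for 9 of the 10 genes (Tubb6 is not shown), 5′ to 3′, from the GENCODE M21 transcripts of GRCm38. Capitals mark the first 12 bases, the 4 codons that encode the recognised segment in alpha- and beta-tubulins. In alpha-tubulin genes they encode methionine, arginine, glutamate and cysteine.
Tuba1a (chromosome 15, minus strand): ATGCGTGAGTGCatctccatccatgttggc
Tuba1b (chromosome 15, minus strand): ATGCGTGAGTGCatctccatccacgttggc
Tuba1c (chromosome 15, plus strand): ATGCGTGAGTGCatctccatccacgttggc
Tuba4a (chromosome 1, minus strand): ATGCGCGAGTGCatttcagtccatgtgggg
In beta-tubulin genes the last of these codons encodes isoleucine in place of cysteine.
Tubb5 (chromosome 17, minus strand): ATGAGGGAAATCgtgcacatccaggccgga
Tubb2a (chromosome 13, minus strand): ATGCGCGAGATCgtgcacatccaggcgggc
Tubb3 (chromosome 8, plus strand): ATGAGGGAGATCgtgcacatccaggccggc
Tubb4b (chromosome 2, minus strand): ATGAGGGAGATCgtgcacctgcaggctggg
The gamma-tubulin gene begins otherwise.
Tubg1 (chromosome 11, plus strand): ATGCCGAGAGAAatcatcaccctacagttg

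All codons for these residues were searched, on the coding strand of annotated starts alone: ATG, then CGN, AGA or AGG, then GAA or GAG, then TGT or TGC for the alpha type or ATT, ATC or ATA for the beta type. The alpha type was found in 9 genes and the beta type in 9, together 18 of 21590 genes with an annotated coding start (0.0834%). Besides tubulins they were Gm49450, a gene annotated across parts of Tuba1a and Tuba1b, and Ing1, which encodes a chromatin regulator. Ing1 had a log2 fold change of 0.19 between mitotic and asynchronous cells (adjusted p = 0.0636), which did not pass the test. A matching start describes the letters only.

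The files hold whole-number counts of reads from the 3′ ends of transcripts, between 3432875 and 6587997 reads in genes per library. Levels are given in CPM, the usual count scaled to library size, here with TMM factors, and are compared between libraries of the same gene. The B cell markers reported here were present (6 of 6 above 1 CPM, 1127 to 1689 CPM summed in mitotic and 2069 to 2708 CPM in asynchronous libraries), and T and NK cell markers summed to at most 0.473 CPM in any library. Of the 6 B cell markers, 6 were called lower in mitotic cells over the mean of lines, 4 in S38A, 4 in S38D and 6 in WT. Of all genes tested, 21.6%, 8.06%, 14.8% and 12.7% were called lower in these comparisons. The marker medians were -0.71 in S38A, -0.90 in S38D and -1 in WT, beside 0.01, -0.01 and -0.02 for all genes. The part of these markers in the tubulin results was not tested. S38D asynchronous replicate 1 and WT mitotic replicate 1 stood apart from their partners. Spike-in RNA made up 2.29% to 3.6% of gene reads, and scaling to it shifted the median log2 fold change of all genes by -0.18 in the mean mitotic comparison, -0.43 in WT, 0.02 in S38A and -0.11 in S38D. In bulk RNA, fewer cells of a type and less RNA per cell cannot be told apart, and mitotic state and nocodazole cannot be told apart in this design. The RNA came from cleared polysome lysates, and whether these held the same part of the cell's RNA in both states was not tested.

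In mitotic cells, 8 of the 10 tubulin genes were lower than in asynchronous cells over the mean of the 3 lines and 0 were higher, where a gene was called at an adjusted p under 0.05 (edgeR quasi-likelihood test, Benjamini-Hochberg adjustment over all 10477 genes). Of all genes tested, 21.6% were called lower and 20.5% higher. The 8 were Tubb5, Tubb2a, Tubb4b, Tubb3, Tuba1a, Tuba1b, Tuba1c and Tubg1, and all except Tubg1 fell by more than 2-fold, against 2.88% of all genes called at least 2-fold lower. The median log2 fold change of the 10 was -1.26, beside -0.02 for all genes. For these same 7 genes every mitotic library lay below every asynchronous library, which was so for 4.84% of genes tested. The calls of the 8 were kept under all 20 alternative settings, including the spike-in scaling.

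**Figure D1:**
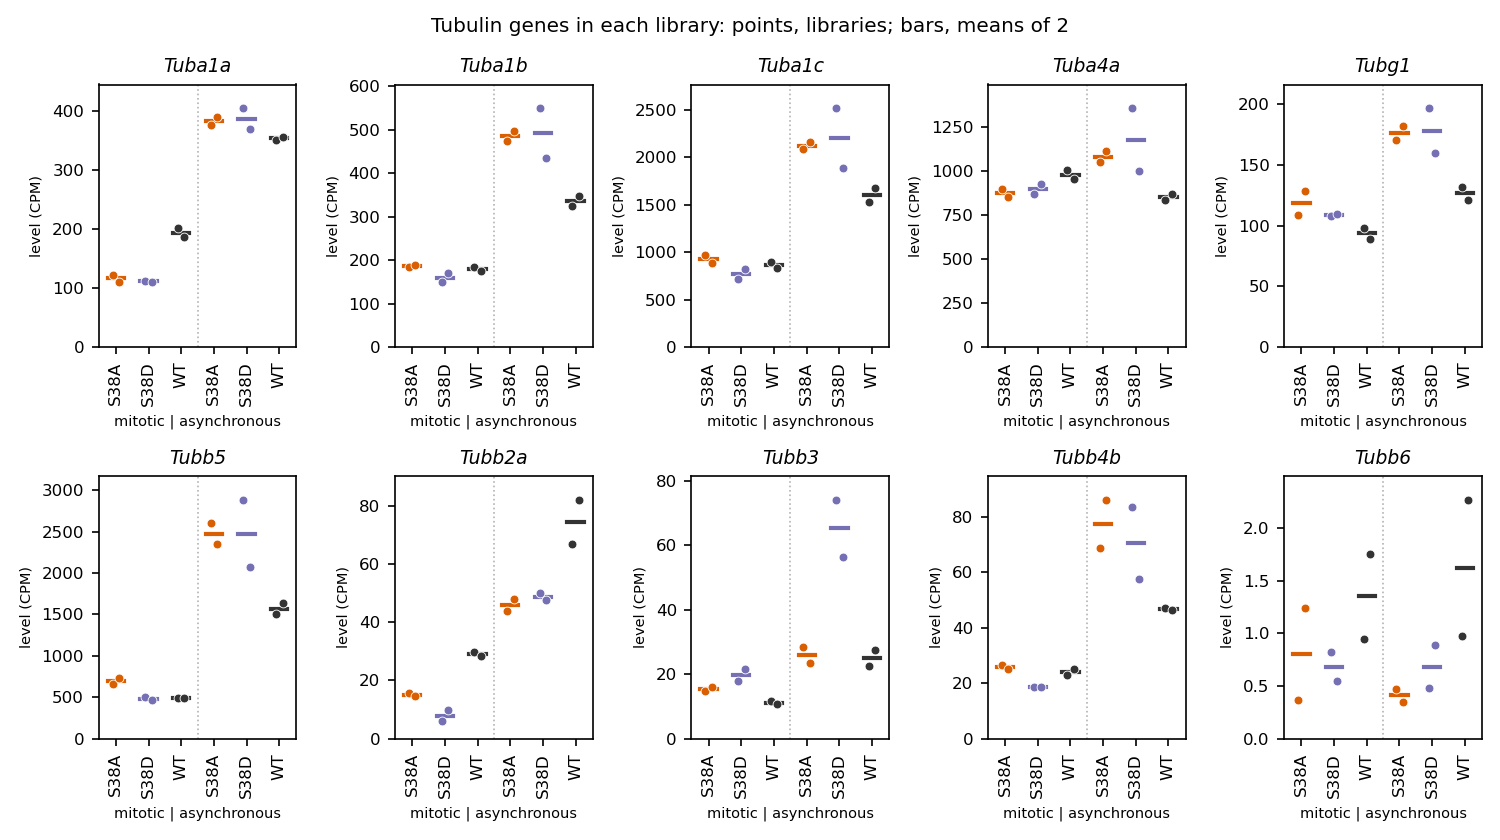
Level in CPM (vertical axis of each panel, from 0) of the 10 tubulin genes in each library (points) with the mean of the 2 libraries of a group (bars), mitotic groups to the left of the dotted line and asynchronous groups to the right. In 7 panels all mitotic points lie below all asynchronous points, Tubb5 being at 465 to 732 CPM against 1504 to 2883 CPM, while Tuba4a, Tubb6 and Tubg1 overlap.

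Tubb5, on chromosome 17 (35833921 to 35838306, minus strand, GRCm38), encodes the beta-tubulin that proliferating cells make most broadly, and it held 90.5% ± 2.07 of beta-tubulin reads in mitotic and 92.9% ± 1.36 in asynchronous libraries (SD, n = 6 libraries from 3 lines each). Its level was 657 and 732 CPM in S38A mitotic, 499.7 and 465 CPM in S38D mitotic, and 485 and 486 CPM in WT mitotic libraries. In asynchronous libraries it was 2604 and 2345 CPM in S38A, 2883 and 2069.6 CPM in S38D, and 1504 and 1633 CPM in WT. S38A was the highest of the mitotic groups and WT the lowest of the asynchronous ones, and no mitotic library came near an asynchronous one. The means were 554 ± 112 CPM in mitotic, against 2173 ± 542 CPM in asynchronous libraries, a log2 fold change of -1.96 (SE 0.0797, adjusted p = 4.28e-11), and Tubb5 was 36th from the lowest of 10477 fold changes. Ordered by mean level, S38D and S38A asynchronous cells stood at 2476 ± 575 and 2474 ± 184 CPM, followed by WT asynchronous (1568 ± 91.4), S38A mitotic (695 ± 53), WT mitotic (486 ± 1.2) and S38D mitotic cells (483 ± 24.2; SD, n = 2 each). The first pair of this order and the last pair had overlapping libraries, and the other neighbours did not.

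Tubb2a (chromosome 13, 34074274 to 34078007, minus strand), a beta-tubulin best known from neurons, fell by 1.86 in log2 units (SE 0.108, adjusted p = 2.58e-09). It had 15.5 and 14.7 CPM in S38A mitotic, 5.97 and 9.78 CPM in S38D mitotic, and 29.7 and 28.5 CPM in WT mitotic libraries. The asynchronous libraries held 44 and 47.9 CPM in S38A, 50 and 47.7 CPM in S38D, and 66.9 and 82.2 CPM in WT. WT libraries were the highest within each state, and S38D mitotic libraries were the lowest of all. Over the last 500 nt of its transcript, 42% of positions of a 51-nt read match Tubb2b, Tubb4a or a pseudogene, but Tubb2b had at most 7 and Tubb4a at most 6 reads in a library.

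Tubb4b (chromosome 2, 25222160 to 25224702, minus strand) encodes a widely made beta-tubulin, and the genes and pseudogenes that match parts of its end (50.4% of read positions) had at most 1 read in a library. In mitotic libraries it had 26.6 and 25 CPM in S38A, 18.7 and 18.7 CPM in S38D, and 23 and 25.2 CPM in WT, against 69 and 86.2 CPM in S38A, 83.6 and 57.6 CPM in S38D, and 47.3 and 46.5 CPM in WT asynchronous libraries. The lowest asynchronous library stood well above the highest mitotic one, and the log2 fold change was -1.49 (SE 0.104, adjusted p = 2.01e-08). Tubb3 (chromosome 8, 123411424 to 123422015, plus strand), the beta-tubulin used as a marker of neurons, fell by 1.21 (SE 0.111, adjusted p = 3.92e-07). It had 14.8 and 16 CPM in S38A, 17.9 and 21.6 CPM in S38D, and 11.5 and 10.8 CPM in WT mitotic libraries. The asynchronous libraries held 28.4 and 23.6 CPM in S38A, 74.2 and 56.4 CPM in S38D, and 22.7 and 27.5 CPM in WT, so that S38D was the highest group in each state. Tubb6 (chromosome 18, 67390717 to 67402749, plus strand), a beta-tubulin known from muscle and connective tissue, had only 55 reads in the 12 libraries together and 0.345 to 2.27 CPM. Its log2 fold change of 0.25 had a 95% interval of -0.70 to 1.19 (adjusted p = 0.689).

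Among the alpha-tubulins, Tuba1a, Tuba1b and Tuba1c are close copies that lie near each other on chromosome 15 and encode nearly the same protein. Over their last 500 nt, 56.2% (Tuba1a), 81.1% (Tuba1b) and 68% (Tuba1c) of positions of a 51-nt read match at least 1 other gene, mainly each other. The authors' handling of such reads is not given in the sources used here, so the split among the 3 and their summed level are uncertain. Their sum was 1169 ± 113 CPM in mitotic, against 2785 ± 462 CPM in asynchronous libraries (SD, n = 6). The lowest and highest sums were 978 and 1280 CPM in mitotic, against 2199.6 and 3466 CPM in asynchronous libraries.

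Taken singly, Tuba1a (98949837 to 98953703, minus strand), the alpha-tubulin of developing neurons, had 123 and 110.1 CPM in S38A, 112 and 111 CPM in S38D, and 201 and 186 CPM in WT mitotic libraries. Its asynchronous libraries held 376 and 389 CPM in S38A, 404 and 369 CPM in S38D, and 351 and 356 CPM in WT. The asynchronous groups were close together, while WT stood above both mutant lines in mitosis, and the log2 fold change was -1.46 (SE 0.0616, adjusted p = 6.79e-11). Tuba1b (98931425 to 98934565, minus strand), which most dividing cells express, had 149 to 188 CPM in the 6 mitotic, against 325 to 549 CPM in the 6 asynchronous libraries and fell by 1.30 (SE 0.0703, adjusted p = 1.21e-09). Tuba1c (99029891 to 99038110, plus strand) had 716 to 964 CPM in mitotic, against 1524 to 2512 CPM in asynchronous libraries and had a log2 fold change of -1.20 (SE 0.075, adjusted p = 5.92e-09). Both ranges were apart by a wide margin.

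Tuba4a (chromosome 1, 75214228 to 75219865, minus strand), an alpha-tubulin abundant in blood cells and neurons, did not pass the test. It had 897 and 854 CPM in S38A, 869.7 and 926 CPM in S38D, and 1006 and 951 CPM in WT mitotic libraries, against 1048 and 1113 CPM in S38A, 1354 and 999 CPM in S38D, and 832 and 871 CPM in WT asynchronous libraries. The mitotic libraries lay below the asynchronous ones in both mutant lines and above them in WT. The mean log2 fold change was -0.16 (SE 0.0716, 95% interval -0.32 to -0.01, adjusted p = 0.0766), and the intervals of the other 3 alpha-tubulins all ended at or below -1.04. Scaled to the spike-ins, Tuba4a was at -0.34 and was called lower (adjusted p = 0.00253), and it was also called without S38D asynchronous replicate 2 (-0.23, adjusted p = 0.000787) and without the filter on low counts (-0.18, adjusted p = 0.0265). The last 500 nt of its transcript lie wholly over Stk16, a kinase gene on the opposite strand. Stk16 had 156 to 189 CPM in mitotic, against 131 to 171 CPM in asynchronous libraries (log2 fold change 0.29, adjusted p = 0.00297). Over all libraries 63365 reads were counted for Tuba4a and 10255 for Stk16. Whether reads were counted by strand is not given in the sources used here, so how far reads of the 2 genes were kept apart was not tested.

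Tubg1 (chromosome 11, 101119938 to 101126419, plus strand), which encodes the gamma-tubulin of the microtubule-nucleating ring, fell by 0.57 (SE 0.0738, adjusted p = 1.3e-05). It had 109 and 129 CPM in S38A, 108 and 109 CPM in S38D, and 98.2 and 88.6 CPM in WT mitotic libraries. In asynchronous libraries it had 171 and 182 CPM in S38A, 196 and 159.8 CPM in S38D, and 132 and 121 CPM in WT. Mitotic libraries were lower within each line, but S38A mitotic replicate 2 lay above WT asynchronous replicate 2. Its 95% interval of -0.73 to -0.42 did not meet that of any other called tubulin gene, all of which ended at or below -0.98.

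These unequal changes altered the make-up of tubulin reads, which are given as shares of reads without a correction for length, since the reads come from transcript ends. Tuba4a made up 44% ± 2.18 of alpha-tubulin reads in mitotic libraries (41.4% to 47.1%) and 27.1% ± 0.618 in asynchronous libraries (26.3% to 28.1%; SD, n = 6 each). Tuba1c, the largest alpha-tubulin fraction of asynchronous libraries, held 40.9% ± 2.54 in mitotic and 51.6% ± 0.753 in asynchronous libraries. Tuba1b held 8.4% ± 0.443 and Tuba1a 6.68% ± 1.62 in mitotic libraries, against 11.4% ± 0.593 and 9.95% ± 1.15 in asynchronous libraries. Summed over the family, alpha-tubulins stood at 2086 ± 149.5 CPM in mitotic, against 3821 ± 648 CPM in asynchronous libraries. Beta-tubulins stood at 611 ± 112 CPM in mitotic, against 2334 ± 558 CPM in asynchronous libraries. The ratio of beta- to alpha-tubulin reads was 0.294 ± 0.0558 in mitotic (0.241 to 0.387) and 0.605 ± 0.0557 in asynchronous libraries (0.541 to 0.69), with no overlap. Of read positions at the transcript end, 56.2% to 81.1% match another gene in Tuba1a, Tuba1b and Tuba1c, and 0% in Tubb5. How such reads, and reads of Tuba4a over Stk16, were counted is not given. The size of these shares and of the ratio is therefore uncertain.

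**Figure D2:**
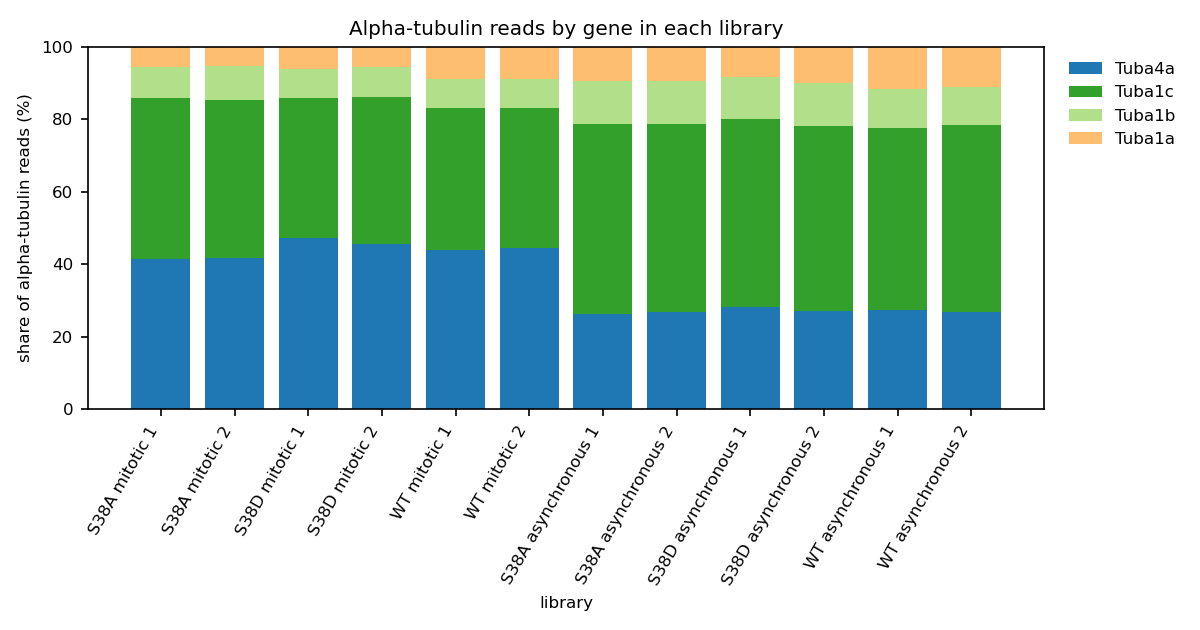
Share of alpha-tubulin reads (vertical axis, percent) held by each of 4 genes in each of the 12 libraries, the 6 mitotic ones to the left of the 6 asynchronous ones. The Tuba4a part spans 41.4% to 47.1% in mitotic and 26.3% to 28.1% in asynchronous libraries.

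Within each line, 8 tubulin genes were lower in S38A mitotic cells, 9 in S38D mitotic cells and 8 in WT mitotic cells than in the asynchronous cells of the same line, and 0 were higher. The shares of all genes called lower were 8.06% in S38A, 14.8% in S38D and 12.7% in WT, and of those called higher 6.72%, 11.6% and 13.4%. The median log2 fold changes of the 10 genes were -1.29, -1.67 and -0.90 in that order of lines, beside 0.01, -0.01 and -0.02 for all genes. Tuba4a was called in S38D, at -0.39 (adjusted p = 0.0288), with -0.30 in S38A (adjusted p = 0.117) and 0.20 in WT (adjusted p = 0.253). That call was lost without S38D asynchronous replicate 1 (-0.15, adjusted p = 0.255), without S38D mitotic replicate 1 (-0.35, adjusted p = 0.17) and without S38D mitotic replicate 2 (-0.44, adjusted p = 0.0934), and also with only the groups compared (-0.38, adjusted p = 0.226). In S38A Tuba4a was called without either S38D asynchronous replicate (-0.33, adjusted p = 0.00329, and -0.30, adjusted p = 0.0103), with only the groups compared (-0.30, adjusted p = 0.0105), with no filter (-0.33, adjusted p = 0.0364) and without both libraries that stood apart (-0.33, adjusted p = 0.00185). In WT the value was called higher without S38D asynchronous replicate 1 (0.20, adjusted p = 0.0452) and was -0.25 under the spike-in scaling.

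Of the beta-tubulins, Tubb5 fell by 1.83 in S38A (SE 0.137), 2.36 in S38D (SE 0.14) and 1.69 in WT (SE 0.137), with adjusted p between 1.56e-08 and 9.79e-07. Tubb2a fell by 1.60 in S38A, 2.62 in S38D and 1.35 in WT. Tubb4b fell by 1.59, 1.92 and 0.96 in the same order of lines, and Tubb3 by 0.76, 1.72 and 1.16. The Tubb3 call in S38A (adjusted p = 0.0134) was lost without S38A asynchronous replicate 1 (adjusted p = 0.121) and without S38A mitotic replicate 1 (0.107) or 2 (0.0732). Tubb6 did not pass in any line, at 0.93 in S38A, 0.01 in S38D and -0.20 in WT, with standard errors of 0.659 to 0.851.

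Of the alpha-tubulins, Tuba1a fell by 1.72 in S38A (SE 0.107), 1.79 in S38D (SE 0.108) and 0.87 in WT (SE 0.105). Tuba1b fell by 1.38, 1.62 and 0.90 in that order, and Tuba1c by 1.19, 1.51 and 0.89. Gamma-tubulin Tubg1 fell by 0.57 in S38A, 0.71 in S38D and 0.44 in WT. The Tubg1 call in WT (adjusted p = 0.0212) was lost when either WT library of either state was left out (adjusted p = 0.0533 to 0.164), and that in S38A (0.00637) without S38A asynchronous replicate 2 (0.0707) or S38A mitotic replicate 1 (0.102).

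**Figure D3:**
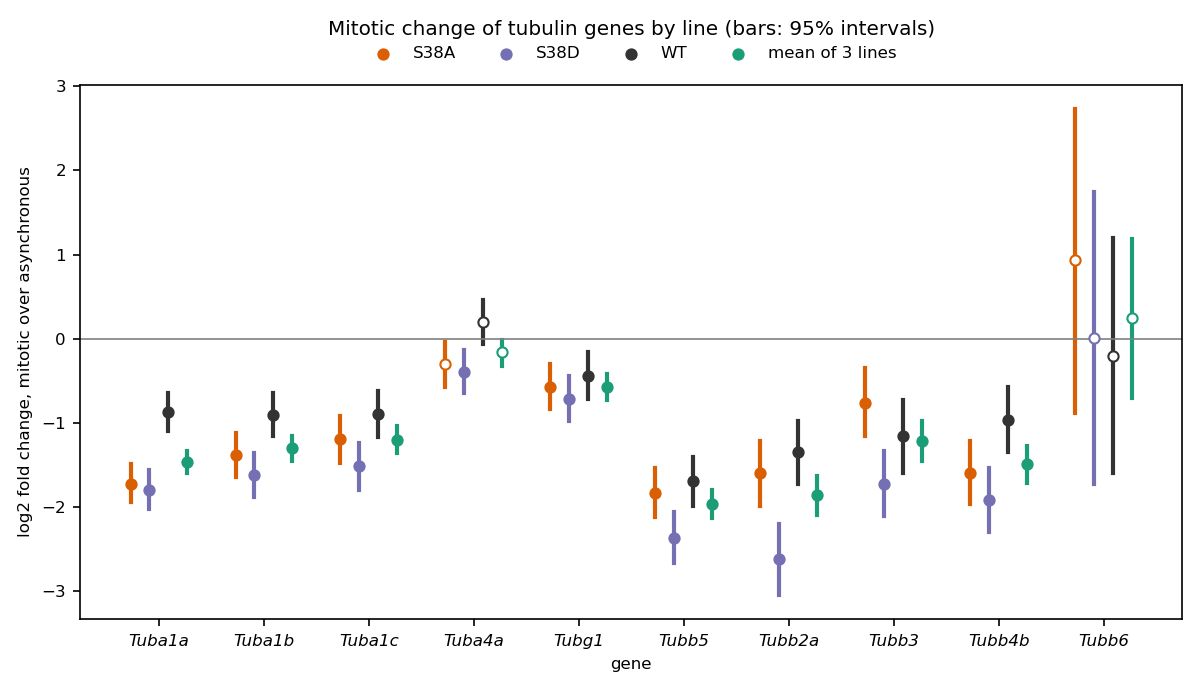
Log2 fold change of mitotic over asynchronous cells (vertical axis) for each tubulin gene in S38A, S38D, WT and their mean, with 95% intervals as bars, filled points being called and open points not. The values of Tubb5 lie between -2.36 and -1.69, those of Tuba4a between -0.39 and 0.20, and Tuba1a in WT (-0.87) stands above both mutant lines.

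The difference between lines in this mitotic change was tested gene by gene. Tuba1a fell more in both mutant lines than in WT, by -0.85 for S38A minus WT (SE 0.148, adjusted p = 0.017) and -0.93 for S38D minus WT (SE 0.149, adjusted p = 0.0213), and no other tubulin gene was called in either comparison. Of the 10 tubulin genes, 4 had an unadjusted p under 0.05 for S38A minus WT and 7 for S38D minus WT. The medians of the 10 were -0.27 and -0.64, beside 0.01 and -0.04 for all genes. Spike-in scaling moved the median of all genes by 0.46 for S38A minus WT and by 0.33 for S38D minus WT. The size and sign of the tubulin medians therefore depend on the scaling. Of all genes, 0.993% and 0.401% were called in these comparisons, at an adjusted p under 0.05. The share of all genes with an unadjusted p under 0.05 is not given here, so the counts of 4 and 7 stand without it. Both comparisons share the WT libraries. The first call was lost under the spike-in scaling (-0.39, adjusted p = 0.227), and without WT asynchronous replicate 1 (adjusted p = 0.122) or 2 (0.065), S38A asynchronous replicate 1 (0.0997) or 2 (0.12), WT mitotic replicate 1 (0.0801) or S38A mitotic replicate 2 (0.146). The second was lost under that scaling (-0.59, adjusted p = 0.205), with only the groups compared (adjusted p = 0.129), and without WT asynchronous replicate 1 (0.204) or 2 (0.12), S38A asynchronous replicate 1 (0.0662) or 2 (0.0706), WT mitotic replicate 1 (0.115) or S38D mitotic replicate 1 (0.139) or 2 (0.199). With S38D asynchronous replicate 1 or 2 left out, more tubulin genes were called for S38A minus WT. With replicate 2 left out, more were called for S38D minus WT. The share of all genes called in those fits is not given here, so the rise cannot be read as a result about tubulin genes. The log2 values of Tuba1a without 1 library stayed between -0.93 and -0.77 and between -0.99 and -0.85.

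Tubb2a had a difference of -1.26 for S38D minus WT (SE 0.265) with an adjusted p = 0.0502, and -0.25 for S38A minus WT (SE 0.253, adjusted p = 0.614). Between S38D and S38A 0 tubulin genes were called by edgeR, DESeq2 or limma-voom, while 3 had an unadjusted p under 0.05 in edgeR. Those 3 were Tubb2a (-1.02, adjusted p = 0.314), Tubb3 (-0.97, adjusted p = 0.314) and Tubb5 (-0.53, adjusted p = 0.46). Of all genes, 0.0382% were called at an adjusted p under 0.05, and their share at an unadjusted p under 0.05 is not given here. Without S38D asynchronous replicate 2, some tubulin genes were called in this last comparison, and the share of all genes called in that fit is not given here.

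Among mitotic cells, 3 tubulin genes differed between S38A and WT, beside 17% of all genes. Tubb2a was lower in S38A, with a log2 fold change of -0.94 (SE 0.188, adjusted p = 0.00261), and so was Tuba1a, at -0.73 (SE 0.106, adjusted p = 0.000212), while Tubb5 was higher by 0.52 (SE 0.134, adjusted p = 0.0141). The Tubb5 call was lost without WT mitotic replicate 1 (adjusted p = 0.081) or 2 (0.0662) and without S38A mitotic replicate 2 (0.135). Between S38D and WT 3 genes were called as well, beside 4.56% of all genes. Tubb2a had a log2 fold change of -1.87 in S38D over WT (SE 0.203, adjusted p = 3.02e-05), and Tuba1a one of -0.80 (SE 0.107, adjusted p = 0.00022). Both kept their calls against WT, in S38A and in S38D, under all 21 alternative settings. Tubb3 was higher in S38D by 0.83 (SE 0.204, adjusted p = 0.0274), a call lost without any 1 of the 4 libraries compared (adjusted p = 0.0704 to 0.251), with DESeq2 (0.103), limma-voom (0.0671) and the spike-in scaling (0.0646).

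S38D mitotic cells compared with S38A mitotic cells had 2 tubulin genes called, both lower, beside 17.7% of all genes. They were Tubb2a, at -0.93 (SE 0.21, adjusted p = 0.00635), and Tubb5, at -0.53 (SE 0.134, adjusted p = 0.0128). The Tubb2a call was lost without S38A mitotic replicate 1 (adjusted p = 0.0511) or S38D mitotic replicate 1 (-0.63, adjusted p = 0.0906). The Tubb5 call was lost without S38A mitotic replicate 2 (adjusted p = 0.118) or either S38D mitotic library (0.0588 and 0.129). More tubulin genes were called when S38D asynchronous replicate 1 or replicate 2 was left out, and 4 with only the groups compared. The share of all genes called in these fits is not given here.

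In asynchronous cells more tubulin genes were higher in the mutant lines. For S38A over WT, 5 were called higher and 1 lower, beside 11.7% and 9.54% of all genes. They were Tubb4b (0.73, adjusted p = 0.0068), Tubb5 (0.66, adjusted p = 0.00249), Tuba1b (0.53, adjusted p = 0.00501), Tubg1 (0.48, adjusted p = 0.014) and Tuba1c (0.40, adjusted p = 0.034), with Tubb2a lower (-0.69, adjusted p = 0.00853). Spike-in scaling moved the median of all genes by -0.45 here, left 2 tubulin genes called, both lower and Tubb2a among them (-1.16, adjusted p = 0.000776), and put Tuba1c at -0.06. Fewer tubulin genes were called when WT asynchronous replicate 1 or 2 or S38A asynchronous replicate 2 was left out. The shares of all genes called in these fits and under spike-in scaling are not given here.

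For S38D over WT in asynchronous cells, 7 were called higher and 1 lower, beside 4.87% and 4.12% of all genes. Tubb3 was the largest, at 1.39 (SE 0.183, adjusted p = 0.000178). It was followed by Tubb5 (0.66), Tubb4b (0.59), Tuba1b (0.55), Tubg1 (0.49), Tuba4a (0.47) and Tuba1c (0.46), with adjusted p of 0.00576 to 0.0411, and Tubb2a was lower (-0.61, adjusted p = 0.0357). These values share the WT libraries with those of S38A. Spike-in scaling moved the median of all genes by -0.38 and left Tubb3 higher (0.98, adjusted p = 0.00462) and Tubb2a lower (adjusted p = 0.00523) as the only calls. S38D asynchronous replicate 1, which stood apart, was 1.1 to 1.45 times its partner in 8 tubulin genes. In these 8 the 2 libraries differed by more than counting error. Tubb2a was at 1.05 and Tubb6 at 0.54 times its partner, within counting error. The share of all genes that differed by more than counting error is not given here. Fewer tubulin genes were called without S38D asynchronous replicate 1, and without WT asynchronous replicate 1 or 2. The number also fell without S38A asynchronous replicate 1 or 2, or S38A mitotic replicate 1 or 2. With only the groups compared, 1 was called. The shares of all genes called in these fits and under spike-in scaling are not given here, so the fall cannot be read as a result about tubulin genes.

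Tubb3 was the exception among these in holding its call under all 21 alternatives, at 0.98 to 1.57. It also separated S38D from S38A in asynchronous cells, at 1.33 (SE 0.178, adjusted p = 0.000238), kept under all 21 alternatives, and was the only tubulin gene called there beside 7.22% of all genes. Another was called without S38D asynchronous replicate 2, and the share of all genes called in that fit is not given here. The 4 neuron markers listed, among them Snap25 with 0 reads, summed to 4.77 to 5.57 CPM in S38D asynchronous libraries, 1.9 to 3.15 CPM in S38A and 2.55 to 2.74 CPM in WT. Only 1 of the 4 had enough reads to be tested. In asynchronous cells it was not called for S38D over WT (log2 fold change 0.93) or for S38D over S38A (0.92). The part of these markers in the Tubb3 result was not tested.

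**Figure D4:**
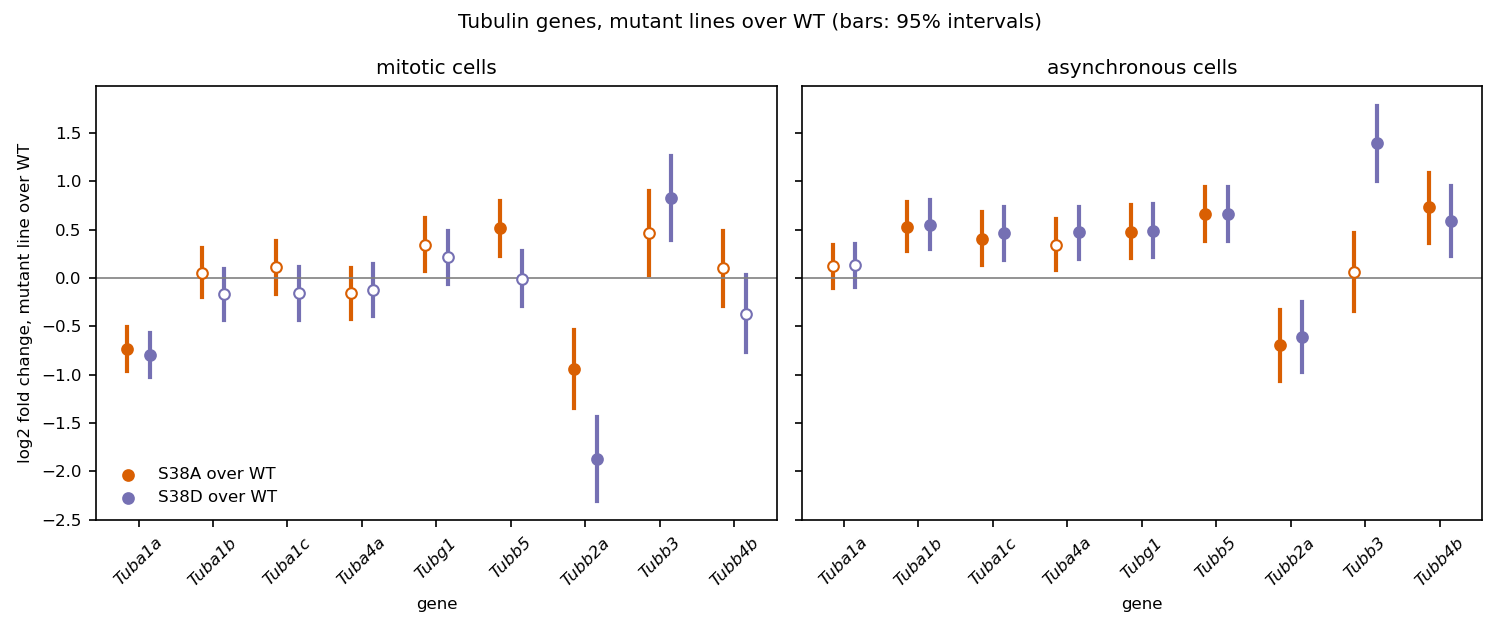
Log2 fold change of S38A over WT and of S38D over WT (vertical axis) for 9 tubulin genes, in mitotic cells (left) and asynchronous cells (right), with 95% intervals as bars, filled points being called and open points not. Tubb2a is below 0 in all 4 comparisons (-1.87 to -0.61), Tubb3 is at 1.39 in S38D asynchronous cells, and Tuba1a is below 0 in mitotic cells (-0.73 and -0.80) but at 0.12 and 0.13 in asynchronous cells.

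Lists of other genes that make, fold, modify or handle tubulin had medians of -0.37 to 0.11 in the mean mitotic comparison, beside -0.02 for all genes, of which 21.6% were called lower and 20.5% higher. Of 10 further tubulin genes only 3 had enough reads, and of these Tubd1, the delta-tubulin of centrioles, was lower (-0.37, adjusted p = 0.00879), while Tube1, for epsilon-tubulin (-0.08), and Tubg2, for a second gamma-tubulin (-0.45, adjusted p = 0.0987), did not pass. Of 10 genes of the gamma-tubulin ring complex and its anchors, 1 was higher and 1 lower, fewer than the 20.5% and 21.6% of all genes, with a median of -0.10. Tubgcp2, a core subunit, was at 17 ± 4 CPM in mitotic, against 28.4 ± 4.27 CPM in asynchronous libraries (log2 fold change -0.76, adjusted p = 0.000156), and the small subunit Mzt1 was higher by 0.54 (adjusted p = 0.0191). Tubgcp3, another core subunit (0.15, adjusted p = 0.0759), and Nedd1, which anchors the ring at spindles and centrosomes (-0.32, adjusted p = 0.166), did not pass.

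Of 9 genes for tubulin cofactors and tubulin mRNA decay, 3 were lower and 0 higher, with a median of -0.22, and the share lower was near the 21.6% of all genes. Tbcb, which handles alpha-tubulin during dimer assembly, was at -0.33 (adjusted p = 0.00371), and Tbcd, which handles beta-tubulin, at -0.32 (adjusted p = 0.0297). Scaper had 2.2 ± 0.76 CPM in mitotic, against 3.82 ± 1.75 CPM in asynchronous libraries, a log2 fold change of -0.76 (adjusted p = 0.0254). Ttc5 had 2.56 ± 0.821 CPM in mitotic, against 3.65 ± 0.734 CPM in asynchronous libraries (SD, n = 6 each), and its value of -0.54 did not pass (adjusted p = 0.0683).

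Of 14 genes for the CCT chaperonin, which folds tubulin, and for prefoldin, which hands it over, 4 were higher and 3 lower, with a median of 0.08, which is near the shares of all genes (20.5% higher and 21.6% lower). The prefoldin subunits went both ways, with Vbp1 at -0.42 (adjusted p = 0.000245), Pfdn5 at -0.34 (adjusted p = 0.000957) and Pfdn2 at 0.38 (adjusted p = 0.00714), and the chaperonin subunit Cct6a was at 0.30 (adjusted p = 0.000715). Of 13 tested among 17 genes for enzymes that modify tubulin, 4 were higher and 3 lower, with a median of 0.11, and these too were near the 20.5% and 21.6% of all genes. Ttll4, a glutamylase, had 79.9 ± 7.05 CPM in mitotic, against 49.9 ± 8 CPM in asynchronous libraries (log2 fold change 0.69, adjusted p = 2.54e-06), and the deacetylase gene Hdac6 was higher by 0.79 (adjusted p = 0.00215). Ttll1, part of another glutamylase, was at -0.80 (adjusted p = 0.000962), and Sirt2, a second deacetylase of tubulin, at -0.22 (adjusted p = 0.0278). Of 12 tested among 13 genes that govern microtubule ends, 0 were higher and 3 lower, with a median of -0.24, beside 20.5% and 21.6% of all genes. They were the polymerase Ckap5 (-0.64, adjusted p = 0.00353), the depolymerising kinesin Kif2c (-0.30, adjusted p = 0.0137) and the end-binding protein Mapre1 (-0.24, adjusted p = 0.0143), and Mapre2 did not pass (-0.18, adjusted p = 0.0584).

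**Figure D5:**
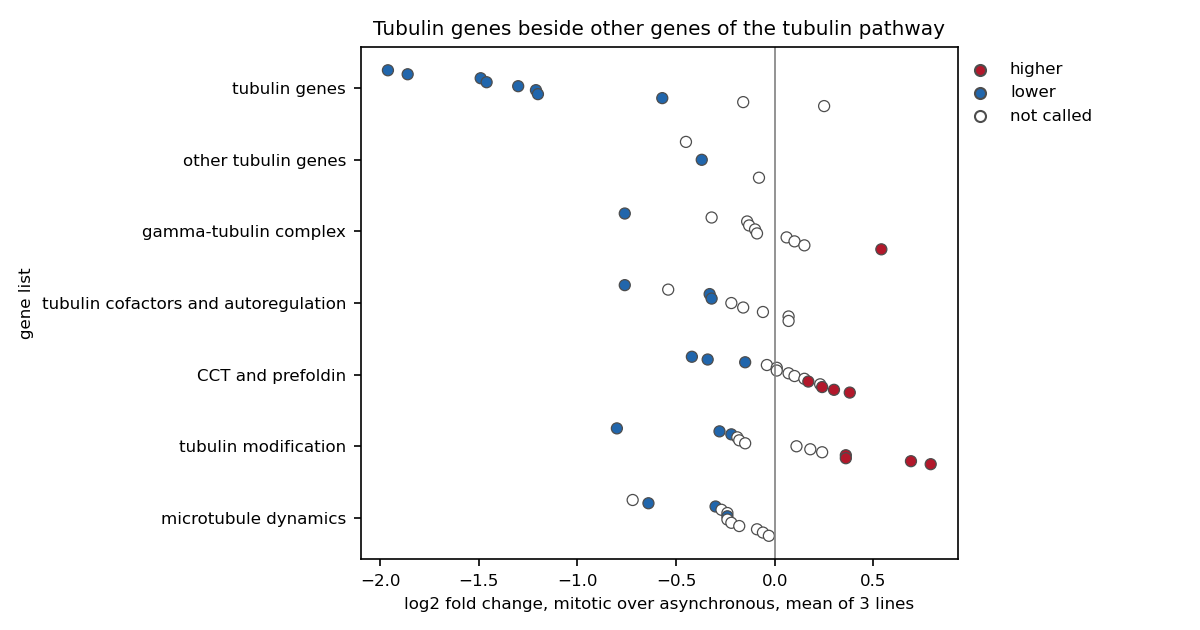
Log2 fold change of mitotic over asynchronous cells, mean of 3 lines (horizontal axis), for the 10 tubulin genes in the top row and for 6 lists of other genes of tubulin biology below; each point is a gene, coloured when called. In the top row 7 genes lie at -1.20 or lower, and in the other rows no gene lies below -0.80.

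Across the 12 libraries the level of Tubb5 on the log2 CPM scale went with that of Tuba1b and Tuba1c (Pearson r = 0.986 each), Tubb4b (0.977), Tubg1 (0.921), Tuba1a (0.889), Tubb3 (0.799) and Tubb2a (0.76), and less with Tuba4a (0.554) and Tubb6 (-0.245). Other genes were compared with Tubb5 if they averaged 10 CPM or more. Left out were the 10 tubulin genes and symbols of predicted genes, clones, pseudogenes and mitochondrially encoded genes. Among the 6827 genes that remained, the closest to Tubb5 were Arl6ip1 (0.993), Spib (0.988), Atp6v1e1 (0.985), Hdlbp (0.984) and Pnkd (0.984). The most opposite were Snora30 (-0.981), Mrps2 (-0.973), Clns1a (-0.971), Eef2kmt (-0.971) and Med16 (-0.966). Spib encodes a transcription factor of B cells, Arl6ip1 a membrane protein of the endoplasmic reticulum and Hdlbp an RNA-binding protein. These values describe the 12 libraries, which share the split into mitotic and asynchronous cells and the scaling.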

How the data were processed

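RNA of 12 libraries was measured by 3′ mRNA sequencing. Per the labels, 1 µg of total RNA from cleared polysome lysates received ERCC spike-in RNA and entered a QuantSeq forward library, read over 51 nt. The deposited files hold counts, whole numbers of reads per gene, without normalization by the authors. Per the submitters' processing notes, the tools were STAR 2.5.3a, cutadapt 1.12 and bcl2fastq 2.16.0.10, with mm10 as the build. Not given in the sources used here: the annotation, the counting program, its strand setting and its handling of reads with several matches. Depth was 3432875 to 6587997 gene reads per library, which leaves Tubb6 at 2 to 8 reads per library.

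Symbols, positions and coding starts came from GENCODE M21 (GRCm38), matched to 99.63% of gene identifiers without their version, which differed for 3 tubulin genes. Genes passed filterByExpr at a minimum count of 10 (10477 genes), were scaled with TMM and fitted with edgeR 4.0.16 (R 4.3.3) as 1 mean per group, with 6 residual degrees of freedom. Quasi-likelihood F tests had Benjamini-Hochberg adjustment across the 10477 genes, separately in 13 comparisons, and the steps were tested on simulated data. There, 200 of 10477 genes were changed and every gene had the same spread. Of the changes, 91% of 2-fold and 70% of 1.5-fold ones were recovered over the mean of lines, and 49% and 12% in the WT comparison. More genes were called in the real libraries, so these percentages may not hold there. A gene not called within a line may still differ. Likeness to Tubb5 used log2 CPM with a prior count of 2.

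The tubulin genes, the 6 lists and the tests were chosen with earlier results of these data known. All 10 genes are named in mitotic comparisons and the called ones in others. Up to 4 genes per list were named by smallest adjusted p. The 5 genes most like Tubb5 and the 5 most opposite were named from r. Ing1 and Stk16 were picked with their values already seen. The B cell marker list had 1 further gene, which is not reported here and was left out of its counts and sums. Alternatives were DESeq2 1.42.0, limma-voom (limma 3.58.1), DESeq2 size factors, spike-in scaling, no filter, a 10 CPM filter, only the groups compared, a replicate block, each library left out, and both libraries that stood apart left out. With 1 library left out, its lone partner took the spread of the remaining groups.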

Additional observations from a re-analysis of the deposited data

Results flagged for a closer look

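The mitotic change of Tuba1a differed between lines by the test of the difference itself, with a log2 value of -0.85 for S38A minus WT and of -0.93 for S38D minus WT. The first call was kept in 14 of 21 alternative settings and the second in 12 of 21, and both were lost under spike-in scaling (-0.39, adjusted p = 0.227, and -0.59, adjusted p = 0.205). Mitotic levels of Tuba1a were 123 and 110.1 CPM in S38A and 112 and 111 CPM in S38D, against 201 and 186 CPM in WT. The split of reads between Tuba1a and its copies Tuba1b and Tuba1c is uncertain, and the part of shared reads in this difference was not tested. As shares of alpha-tubulin reads, which do not depend on library scaling, Tuba1a held 5.53% ± 0.188 in S38A mitotic, 5.76% ± 0.458 in S38D mitotic and 8.75% ± 0.0709 in WT mitotic libraries, beside 9.41% ± 0.0545 in S38A, 9.19% ± 1.13 in S38D and 11.3% ± 0.433 in WT asynchronous libraries (SD, n = 2 each). On the log2 scale the change of this share differed by -0.40 for S38A minus WT and by -0.30 for S38D minus WT, and these values were not tested. The share also depends on the other alpha-tubulin genes, so it is not the same measure as the difference in CPM.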

How the results depend on the processing

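Counts of called tubulin genes in the 4 mitotic comparisons stayed within 1.5 times under every alternative run, at 8 to 9 over the mean of lines, 6 to 9 in S38A, 8 to 9 in S38D and 7 to 9 in WT. The counts that moved were as follows. With spike-in scaling 2 were called in asynchronous cells for S38A over WT, 2 for S38D over WT, and 0 for the mitotic change of S38A minus WT and of S38D minus WT. With only the groups compared, 1 was called in asynchronous cells for S38D over WT, 4 for S38D over S38A in mitotic cells, and 3 and 0 for the change of S38A minus WT and S38D minus WT. Without the low-count filter these differences of change had 2 and 7, and DESeq2 gave 3 for S38D minus WT. Leaving out both libraries that stood apart gave, in asynchronous cells, 4 for S38D over WT and 2 for S38D over S38A, and 4 for S38D over S38A in mitotic cells, and 4 and 2 for those differences of change. Without 1 library, the counts ran from 1 to 7 (S38A over WT) and 1 to 8 (S38D over WT) and 1 to 2 (S38D over S38A) in asynchronous cells, 0 to 4 for S38D over S38A in mitotic cells, and 0 to 4, 0 to 8 and 0 to 4 for the change of S38A minus WT, S38D minus WT and S38D minus S38A. The shares of all genes called under these alternatives are not given here, so a moved count cannot be read as a result about tubulin genes. The cause was not tested.

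Tuba4a in WT turned to -0.25 and Tuba1c in S38A over WT asynchronous cells to -0.06 under spike-in scaling. Tubb6, with few reads and no call, changed sign in its mitotic comparisons, and without 1 library it ran from -0.12 to 0.46 over the mean of lines, from -0.18 to 1.54 in S38A, from -0.37 to 0.48 in S38D and from -0.76 to 0.43 in WT. Without both libraries that stood apart it was at 0.24 in WT. In S38D it was also at -0.10 with spike-in scaling, -0.01 with no filter, -0.01 with the replicate block and -0.37 without both libraries. Replicate numbers did not pair the samples in the same way in all groups: over 5516 genes, 3 of 15 correlations of replicate differences were above 0.1 and 3 below -0.1, from -0.452 to 0.83. WT mitotic, S38A mitotic and S38D asynchronous cells went together (0.611, 0.649 and 0.83). S38A asynchronous cells went against each of them (-0.452 to -0.415). A block on replicate number cannot take up a pattern whose numbering differs between groups. The replicate block gave 2 called genes for the change of S38D minus WT, in place of 1, and moved no other count by over 1.5 times. Counting error limits Tubb6 most, and Tubb2a in S38D mitotic cells rests on 83 reads.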
